A study of Mus musculus with 6 samples.

Results

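The genes described are 39 interferon-stimulated genes, chosen by symbol from the 35275 genes of the deposited table, and all 39 had a row there. They were divided into 25 type I members, which answer mainly to interferon-alpha and interferon-beta, and 14 type II members, which answer strongly to interferon-gamma, although many members of both classes respond to either kind of interferon. RNA came from the back skin of C57BL/6 mice, of which the extraction protocol in the labels says that the epithelial part was taken, with 3 libraries per genotype: IL-33 KO, which lack the cytokine interleukin-33, and wild type (WT). Epithelial cells store interleukin-33 in the nucleus and release it when damaged. Both genotypes received 0.25% dinitrofluorobenzene (DNFB), a contact allergen, on the back skin 3 times a week for 22 days, so the comparison is between 2 sets of inflamed skin and has no untreated skin. The labels do not give the age of the mice, the cells in which Il33 is lost or how the allele was made, and they do not tie each library to its own mouse. The p-values therefore measure only the spread between these libraries, which may be partly technical.

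Interferons are secreted proteins that cells release on sensing viruses, foreign nucleic acid or, in the case of interferon-gamma, when T cells and NK cells are activated. Type I interferons signal through the receptor chains IFNAR1 and IFNAR2 to a complex that includes STAT2 and IRF9 and binds the interferon-stimulated response element. Interferon-gamma signals through IFNGR1 and IFNGR2 to the gamma-activated site and induces the transcription factor IRF1. In inflamed skin both arms act on keratinocytes and on infiltrating leukocytes, and allergen-specific T cells are a known source of interferon-gamma in contact dermatitis.

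The response elements can be read directly in the promoters, which are shown because many members share them and the choice by name did not use them. RefSeq promoters of build GRCm38.p6, the build of the mm10 coordinates in the deposited table, run from 250 bases before to 50 bases after a transcription start, and 29 members had 1 or more. Ifi27l2a, Oas2, Mx1, Mx2, Usp18, Rtp4, Parp14, Zbp1, Cxcl11 and Iigp1 were not matched. Both strands were searched for the core of the interferon-stimulated response element, GAAANNGAAA, and for the core of the gamma-activated site, TTCNNNGAA, which reads the same on both strands. The examples are Isg15 (chr4:156200769-156201068, minus strand), Ifit3 (chr19:34583279-34583578, plus strand) and Rsad2 (chr12:26456403-26456702, minus strand) of the type I class, and Gbp2 (chr3:142620413-142620712, plus strand), Cxcl10 (chr5:92348840-92349139, minus strand) and Igtp (chr11:58199306-58199605, plus strand) of the type II class. Each is written 5′ to 3′ on the strand of the gene, with matches in capitals.
Isg15: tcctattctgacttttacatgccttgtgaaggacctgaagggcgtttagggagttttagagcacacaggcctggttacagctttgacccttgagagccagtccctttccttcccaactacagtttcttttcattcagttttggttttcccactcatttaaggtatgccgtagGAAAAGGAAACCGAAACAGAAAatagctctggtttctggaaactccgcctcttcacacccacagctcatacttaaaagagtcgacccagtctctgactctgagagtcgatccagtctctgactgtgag
Ifit3: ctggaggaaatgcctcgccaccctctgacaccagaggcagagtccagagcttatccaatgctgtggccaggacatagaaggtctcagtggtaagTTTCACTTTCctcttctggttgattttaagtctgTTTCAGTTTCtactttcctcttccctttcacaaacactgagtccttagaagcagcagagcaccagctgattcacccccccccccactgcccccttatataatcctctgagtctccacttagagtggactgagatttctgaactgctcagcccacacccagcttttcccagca
Rsad2: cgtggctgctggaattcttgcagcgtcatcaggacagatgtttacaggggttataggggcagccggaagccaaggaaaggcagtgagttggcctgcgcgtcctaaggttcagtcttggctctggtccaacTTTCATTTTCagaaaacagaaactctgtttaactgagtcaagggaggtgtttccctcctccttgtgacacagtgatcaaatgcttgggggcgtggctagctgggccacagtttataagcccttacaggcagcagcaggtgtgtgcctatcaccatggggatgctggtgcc
Gbp2: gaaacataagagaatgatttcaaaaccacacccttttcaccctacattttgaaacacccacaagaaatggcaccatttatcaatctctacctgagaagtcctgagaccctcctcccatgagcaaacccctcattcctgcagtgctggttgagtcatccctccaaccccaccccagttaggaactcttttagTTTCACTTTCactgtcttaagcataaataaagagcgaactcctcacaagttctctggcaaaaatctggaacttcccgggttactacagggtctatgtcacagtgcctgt
Cxcl10: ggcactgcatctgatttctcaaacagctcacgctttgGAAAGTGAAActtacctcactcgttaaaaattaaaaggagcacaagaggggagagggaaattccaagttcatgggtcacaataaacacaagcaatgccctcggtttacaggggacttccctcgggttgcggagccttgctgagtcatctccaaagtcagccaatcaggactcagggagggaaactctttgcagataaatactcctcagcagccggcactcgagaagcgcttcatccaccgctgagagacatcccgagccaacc
Igtp: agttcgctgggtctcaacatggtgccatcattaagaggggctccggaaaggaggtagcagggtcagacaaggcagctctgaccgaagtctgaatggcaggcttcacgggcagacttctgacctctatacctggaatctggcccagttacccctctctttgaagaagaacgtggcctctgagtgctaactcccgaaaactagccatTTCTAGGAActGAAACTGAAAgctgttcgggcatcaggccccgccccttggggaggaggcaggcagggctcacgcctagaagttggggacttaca

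In Isg15 the capitals hold 3 overlapping matches of the response element core. Ifit3 holds 2 separate matches, and Rsad2, Gbp2 and Cxcl10 hold 1 each. In Igtp the first run of capitals is a gamma-activated site core that starts 45 bases before the transcription start, and the second is a response element core that starts 34 bases before it. The response element core occurred in the promoters of 9 of 17 matched type I members (52.9%) and 6 of 12 matched type II members (50%), against 3.99% of the 27025 genes of the promoter table. The gamma-activated site core occurred in 5 of 17 type I members (29.4%) and 3 of 12 type II members (25%), against 9.55% of all genes. Among windows with a match, those of Gbp5, Psmb8 and Stat2 have a start not found near the beginning of a GENCODE M21 transcript of the gene. The Psmb8 window, 34197945 to 34198244, lies inside the deposited gene, which begins at 34197721, so its match may not be in a promoter. Among the matched members the shares of each core were close between the classes. They rest on only 17 of 25 type I and 12 of 14 type II members, and a difference between the classes was not tested. The matches of the 2 cores can overlap, as in Bst2 and Ifitm3. A match describes letters only and is no evidence of binding, and the absence of these letters says nothing of sites elsewhere.

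**Figure D1:**
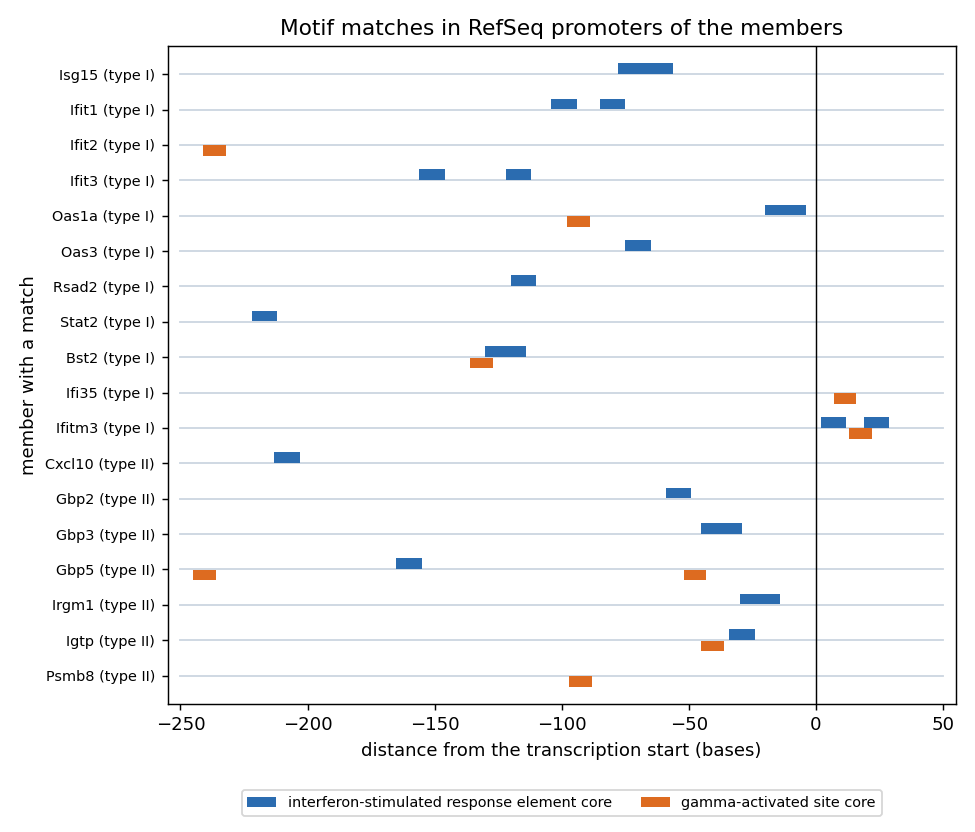
Positions of the response element core (blue) and the gamma-activated site core (orange) in RefSeq promoters, in bases from the transcription start, for each member with a match; overlapping matches of 1 core merge into a longer bar. Response element cores start between -222 (Stat2) and 20 (Ifitm3), and lie before the start in every member shown with one except Ifitm3.

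Library totals were 20459574 to 24359612 counts. The Il33 counts were 21, 22 and 11 (IL-33 KO 1 to 3) and 3906, 3086 and 2817 (WT 1 to 3), matching the genotype labels. Its log2 fold change was -7.54 ± 0.32 (SE, adjusted p = 1.755e-04 in edgeR). Keratinocyte markers were abundant in every library, with summed levels of 28205 to 46738 CPM (counts relative to the scaled library total) in IL-33 KO and 38635 to 63786 CPM in WT. All 14 tested hair follicle markers had higher values in IL-33 KO without overlap, at summed levels of 10727 to 22142 CPM against 2684 to 5951 CPM, and 0 passed in edgeR. Such non-overlap was seen for 7.46% of all tested genes. All 7 tested skeletal muscle markers (3 without overlap) and all 7 adipocyte markers (1 without overlap) also had higher values in IL-33 KO, as had 4 of 6 plasma cell markers, all 4 without overlap, and 0 of these passed. The other 2 plasma cell markers were lower, 1 of them without overlap. By fitted value all 6 keratinocyte markers, 5 of 6 macrophage markers and 5 of 6 fibroblast markers were also lower in IL-33 KO. Only 2 of these, both fibroblast markers, did not overlap, as for 6.47% of all tested genes in this direction, and 0 passed. The part of these lists in the members' values was not tested. Fibroblast markers summed to 11716 to 13742 CPM in IL-33 KO and 12432 to 22468 CPM in WT, so the RNA was not of epithelial cells alone. In bulk tissue, fewer cells of a type and less RNA per cell cannot be told apart.

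No interferon-stimulated gene passed the test for a difference between IL-33 KO and WT skin. All 39 members had enough counts to be tested, and 0 had an adjusted p under 0.05 in edgeR's quasi-likelihood test, where 0.0191% of the 15720 tested genes did. DESeq2 and limma-voom also called 0 members, where they called 0.98% and 0.07% of the genes they tested. At an unadjusted p under 0.05 in edgeR there were 4 members (10.3%), a share close to the 9.02% of all tested genes. These 4, Rsad2, Irf7, Ifit3 and Mx1, are type I members with higher values in IL-33 KO. They are 16% of the 25 type I members, where 4.87% of all genes had such a p in that direction. No member had one in the lower direction, where 4.15% of all genes did. Without WT 2, and without IL-33 KO 2, 0 members had an unadjusted p under 0.05 in edgeR, against 1 to 6 when another library was left out. The smallest adjusted p of any member in edgeR was 0.500, for Rsad2.

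By direction alone, 18 of 25 type I members and 11 of 14 type II members had a higher fitted value in IL-33 KO, against 48.0% of all tested genes. The median log2 fold change was 0.17 over the type I members and 0.12 over the type II members, and -0.013 over all tested genes. The counts depended on WT 2 and, for type II members, also on IL-33 KO 2. Without WT 2, 13 of 25 type I members and 1 of 14 type II members were higher in IL-33 KO, and the medians were 0.0061 and -0.14, while 47.4% of all tested genes were higher. Without IL-33 KO 2 the type II median was -0.034, with 5 of 14 members higher. The 95% interval of the log2 fold change lay within 2-fold either way for 19 of 25 type I members and 10 of 14 type II members.

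**Figure D2:**
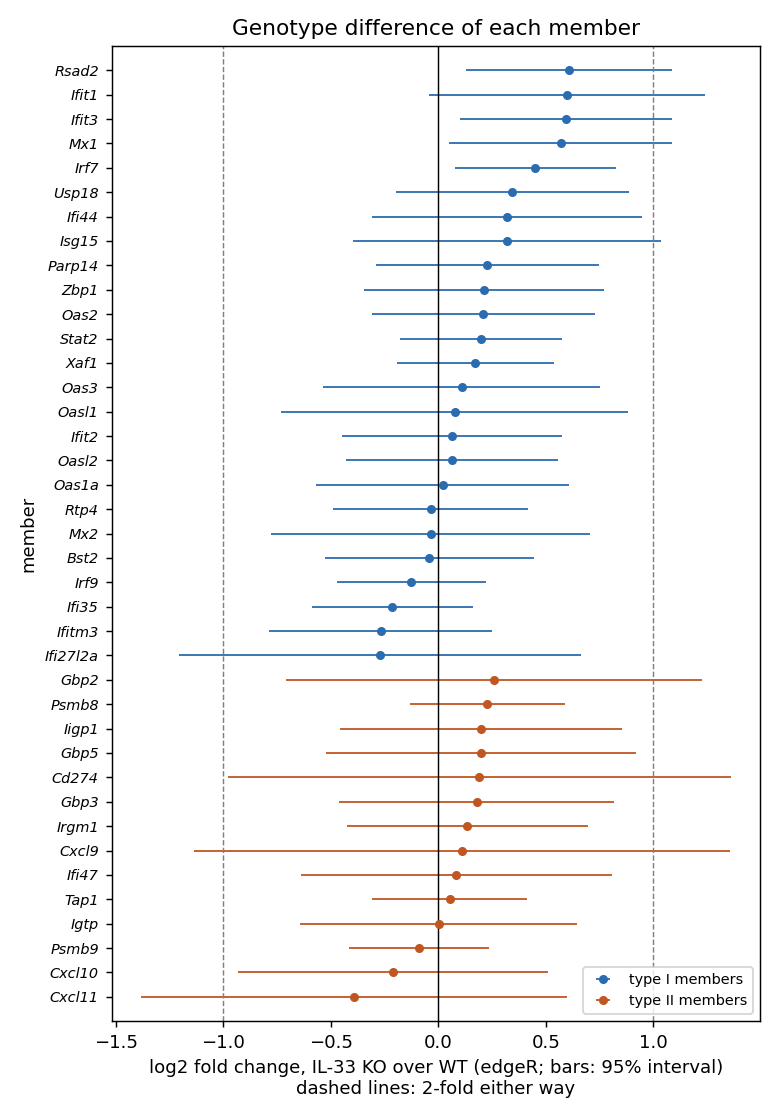
Log2 fold change of IL-33 KO over WT for each member, with its 95% interval from edgeR, type I members in blue and type II members in orange; dashed lines mark 2-fold. The intervals of Rsad2, Ifit3, Mx1 and Irf7 lie above 0 before adjustment for multiple tests, and no type II interval does.

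Levels varied between libraries of the same genotype. WT 2 held the lowest value of 18 of 25 type I members and 12 of 14 type II members, and the highest value of 0 members. IL-33 KO 2 held the highest value of 12 type I members, and WT 1 the highest value of 7 type II members. The same counts over all tested genes are not given here, so these do not show whether the extremes are particular to the members. The mean log2 level of the type I members, relative to the mean of all 6 libraries, was -0.10, 0.22 and 0.17 (IL-33 KO 1 to 3) and -0.038, -0.42 and 0.17 (WT 1 to 3). The same mean for the type II members was -0.15, 0.23 and 0.15 (IL-33 KO 1 to 3) and 0.37, -0.77 and 0.16 (WT 1 to 3). The classes thus stood at like levels in the 3 IL-33 KO libraries and in WT 3. They parted in the other 2 libraries: the type I mean minus the type II mean was -0.41 in WT 1 and 0.35 in WT 2, and between -0.012 and 0.049 in the other 4.

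**Figure D3:**
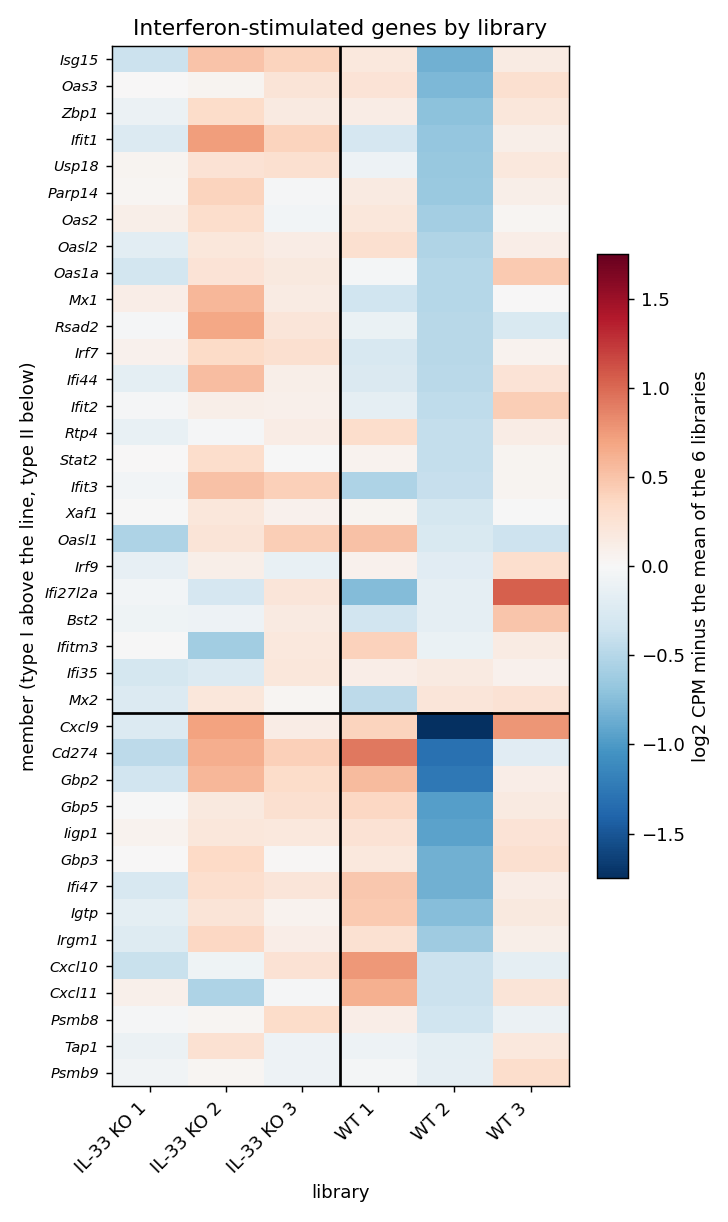
Log2 CPM of each member in each library, minus its mean over the 6 libraries, with type I members above the horizontal line and type II members below it; red is higher and blue lower. WT 2 holds the lowest value of 30 of 39 members, and WT 1 holds the highest value of 7 of 14 type II members.

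This spread was wider among WT than among IL-33 KO libraries. Of the 25 type I members 18, and of the 14 type II members 12, had their lowest value in WT 2. For these members the WT ratio below has WT 2 as its lower term, and ratios without WT 2 are not given here. The highest WT value was 1.72 times the lowest at the median type I member and 2.26 times at the median type II member, against 1.37 times at the median of all tested genes. Among the IL-33 KO libraries the same ratio was 1.35 and 1.41, against 1.29 for all tested genes. The ratio was larger in WT for 20 of 25 type I members and 13 of 14 type II members, and for 60.8% of all tested genes. For 7 of 14 type II members and 9 of 25 type I members the whole range of the IL-33 KO libraries lay inside that of the WT libraries, as it did for 21.0% of all tested genes.

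Markers of T cells and NK cells, the main sources of interferon-gamma, were compared across the same libraries. The mean log2 level of 13 tested T and NK cell markers was 0.32, 0.50 and 0.014 (IL-33 KO 1 to 3) and -0.082, -0.95 and 0.19 (WT 1 to 3), so WT 2 was lowest here too. Of these markers 12 had higher values in IL-33 KO (10 without WT 2) and 0 passed in edgeR, and none was at 0 in every library. Their summed level was 77.6 to 129.8 CPM in IL-33 KO and 32.8 to 90.9 CPM in WT. WT 1 had the highest type II mean but a T and NK cell mean below that of WT 3 and of every IL-33 KO library. Hair follicle markers were also lowest in WT 2, at -1.70, against -0.87 in WT 1 and -0.25 in WT 3. The part of these cells in the members' values was not tested.

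**Figure D4:**
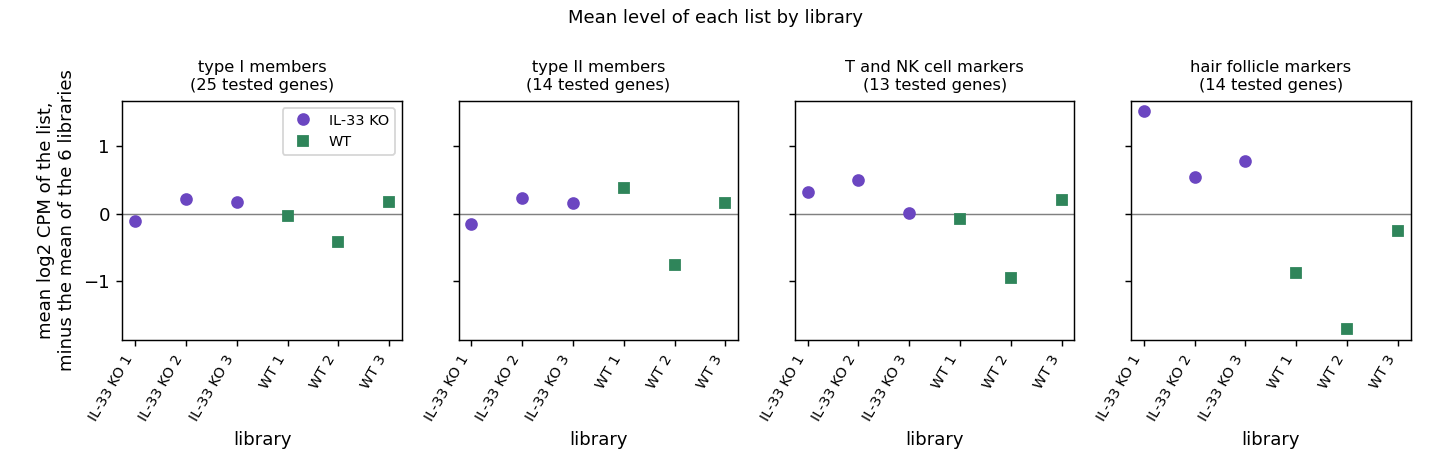
Mean log2 CPM of 4 gene lists in each library, minus the mean of the 6 libraries, with IL-33 KO as circles and WT as squares. WT 2 is lowest in all 4 panels, and only the hair follicle markers separate the genotypes without overlap.

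The ligands themselves were scarcely measured. Ifng, which encodes interferon-gamma, had counts of 11, 34 and 16 (IL-33 KO 1 to 3) and 20, 13 and 19 (WT 1 to 3). The genotypes overlapped, and the log2 fold change was 0.21 ± 0.48 (SE, adjusted p = 0.903 in edgeR). Ifnk, the interferon of keratinocytes, had counts of 1, 8 and 0 (IL-33 KO 1 to 3) and 3, 0 and 0 (WT 1 to 3), too few to test. Ifnb1 had 1 count in WT 1 and 0 in the other 5 libraries. Ifna1, Ifna2, Ifna4, Ifne, Ifnl2 and Ifnl3 had 0 counts in all 6 libraries, which allows up to 3 counts, or 0.118 to 0.151 CPM, per library by counting error alone.

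Plasmacytoid dendritic cells are specialised producers of type I interferon. Of their 3 markers, Siglech, a surface lectin, had CPM values of 2.66, 1.6 and 1.69 (IL-33 KO 1 to 3) and 0.857, 0.961 and 0.355 (WT 1 to 3). Spib, a transcription factor of these cells and of B cells, had 0.675, 0.464 and 0.677 CPM (IL-33 KO 1 to 3) against 0.353, 0.306 and 0.197 CPM (WT 1 to 3), without overlap between the genotypes as for Siglech and for 7.46% of all tested genes. Neither passed in edgeR (adjusted p = 0.440 and 0.531), and the third, the chemokine receptor gene Ccr9, overlapped and had a log2 fold change of -0.22 ± 0.35 (SE). The summed level of the 3 markers was 4.93 to 6.07 CPM in IL-33 KO and 2.29 to 5.44 CPM in WT. Their part in the type I values was not tested.

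Of the receptors and Janus kinases, 0 passed in edgeR. All 6 receptor chains, Ifnar1, Ifnar2, Ifngr1, Ifngr2, Ifnlr1 and Il10rb, had 95% intervals within 2-fold. Ifngr1, the ligand-binding chain for interferon-gamma, had CPM values of 52.5, 41.5 and 44.9 (IL-33 KO 1 to 3) and 52, 59.9 and 61.9 (WT 1 to 3). Its values overlapped, and the log2 fold change was -0.32 ± 0.13 (SE, adjusted p = 0.542 in edgeR). Il10rb, a chain shared by the receptors for interferon-lambda and interleukin-10, had 18 ± 3.48 CPM in IL-33 KO and 22.7 ± 4.36 CPM in WT (SD, n = 3). The receptor-bound kinases Jak1, Jak2 and Tyk2 had lower fitted values in IL-33 KO, with 95% intervals within 2-fold. Jak1 had a log2 fold change of -0.14 ± 0.13 and Tyk2 of -0.04 ± 0.11 (SE).

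Of 7 other interferon regulatory factors, IL-33 KO was above WT by value for 2 and below for 5, and 0 passed in edgeR. Irf3, the factor that starts interferon transcription after nucleic acid sensing, had CPM values of 32.9, 29.4 and 36.2 (IL-33 KO 1 to 3) and 44.2, 51.1 and 37.2 (WT 1 to 3). Every IL-33 KO value lay below every WT value, as for 6.47% of all tested genes. The log2 fold change of Irf3 was -0.43 ± 0.15 (SE, adjusted p = 0.504 in edgeR). Irf2, a repressor of interferon responses, had 19.4 ± 1.62 CPM in IL-33 KO and 22.3 ± 1.33 CPM in WT (SD, n = 3), also without overlap. In all, 3 of the 7 (Irf3, Irf2 and Irf5) lay wholly below WT and 1, Irf8, a factor of myeloid and B cells, lay wholly above, with log2 fold changes of -0.11 for Irf5 and 0.14 for Irf8. Irf1, an activator of type II targets, had its highest value in WT 1, at 72.0 CPM, against 37.9 to 47.4 CPM in the other 5 libraries. The feedback inhibitors Socs1, Socs3, Pias1, Ptpn2 and Ptpn6 were all lower in IL-33 KO by value and 0 passed. Of all 15720 tested genes, 8176 were lower. The median log2 fold change of the 5 inhibitors was -0.22. Without WT 1 it was -0.019, with 1 of the 5 higher, and all 5 stayed lower when any other library was left out. Ptpn6, a tyrosine phosphatase, had 27.5, 29.9 and 27.2 CPM (IL-33 KO 1 to 3) against 33.2, 31.6 and 34.4 CPM (WT 1 to 3), and Socs3, an inhibitor of cytokine receptors, had 59.3, 75.5 and 88 CPM (IL-33 KO 1 to 3) against 141, 80.1 and 70.7 CPM (WT 1 to 3). The Socs3 value of WT 1 was the highest of its 6, as it was for Socs1.

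Among the member transcription factors, Irf7, which amplifies type I interferon production, had CPM values of 36.8, 44.1 and 42.6 (IL-33 KO 1 to 3) and 28.6, 25 and 36.6 (WT 1 to 3). The 3 IL-33 KO values lay above the 3 WT values. The fold was 1.37 (log2 fold change 0.45 ± 0.16, SE, adjusted p = 0.504 in edgeR). Non-overlap in this direction was seen for 3 of 39 members (7.69%), Irf7, Rsad2 and Mx1, and for 7.46% of all tested genes, so its share among the members is near the background. All 3 are type I members, 12% of the 25 in that class. Stat2, a subunit of the complex that binds the response element, had CPM values of 45.2, 55.4 and 44.8 (IL-33 KO 1 to 3) and 46.6, 33.6 and 46.4 (WT 1 to 3). WT 1 and WT 3 lay above IL-33 KO 1 and 3, and WT 2 was lowest (log2 fold change 0.20 ± 0.16, SE, adjusted p = 0.718 in edgeR). Irf9, the DNA-binding subunit of the same complex, had 44 ± 4.24 CPM in IL-33 KO and 48 ± 8.07 CPM in WT (SD, n = 3), the IL-33 KO range lying inside the WT range.

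Isg15 encodes a ubiquitin-like protein that is joined to other proteins, and it was the most abundant member after Ifitm3, Ifi27l2a, Bst2 and Gbp2 on the FPKM scale, which corrects for gene length. It had CPM values of 26.4, 48.5 and 45 (IL-33 KO 1 to 3) and 39.1, 19.2 and 37.9 (WT 1 to 3). Within each genotype it varied by 1.84 times (IL-33 KO) and 2.04 times (WT), and its log2 fold change was 0.32 ± 0.31 (SE, 95% interval -0.40 to 1.04). Usp18, the protease that removes ISG15 and quiets the type I receptor, had CPM values of 7.67, 8.86 and 9.04 (IL-33 KO 1 to 3) and 7.0, 4.67 and 8.44 (WT 1 to 3). All 3 of its IL-33 KO values lay above those of WT 1 and WT 2, and that of WT 3 lay between them (log2 fold change 0.34 ± 0.24, SE, adjusted p = 0.674 in edgeR).

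The antiviral effectors form the largest group, with IL-33 KO above WT by fitted value for 14 of 20 and 0 passing in edgeR. Without WT 2 they stood at 9 higher and 11 lower. Rsad2 encodes viperin, an enzyme that makes a chain-terminating nucleotide. It had CPM values of 12.2, 19.7 and 14.4 (IL-33 KO 1 to 3) and 11.3, 8.82 and 10.2 (WT 1 to 3). Every IL-33 KO value lay above every WT value, with IL-33 KO 2 well above the rest. The log2 fold change was 0.61 ± 0.21 (SE, adjusted p = 0.500 in edgeR), the largest of the 39. It was 0.39 without IL-33 KO 2 and 0.52 without WT 2, and it missed the threshold in each of the fits that left out a library.

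Mx1 encodes a dynamin-like GTPase, and the allele of C57BL/6 mice is known to carry a deletion that abolishes the protein's function. It had CPM values of 6.2, 8.56 and 6.29 (IL-33 KO 1 to 3) and 4.43, 4.02 and 5.72 (WT 1 to 3), again without overlap (log2 fold change 0.57 ± 0.23, SE, adjusted p = 0.533 in edgeR). Its relative Mx2 had 1.43 ± 0.233 CPM in IL-33 KO and 1.45 ± 0.387 CPM in WT (SD, n = 3), and its log2 fold change was -0.04.

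The Ifit proteins bind viral RNA. Ifit1, Ifit2 and Ifit3 lie in 1 cluster on chromosome 19, between 34550694 and 34650009 (mm10). Ifit3 had CPM values of 14.8, 21.9 and 20.5 (IL-33 KO 1 to 3) and 10.4, 11.6 and 15.8 (WT 1 to 3). IL-33 KO 2 and 3 lay above every WT value, and IL-33 KO 1 lay below WT 3 (log2 fold change 0.59 ± 0.21, SE, adjusted p = 0.504 in edgeR). Ifit1 had CPM values of 17.8, 34.9 and 27.6 (IL-33 KO 1 to 3) and 17.2, 13.1 and 22.6 (WT 1 to 3), with IL-33 KO 2 at 1.96 times IL-33 KO 1. Its log2 fold change was 0.60 ± 0.28 (SE, adjusted p = 0.575 in edgeR). Ifit2, from the same cluster, had 17.4 ± 0.834 CPM in IL-33 KO and 16.6 ± 5.36 CPM in WT (SD, n = 3), and its log2 fold change was 0.06. Of the 50-base stretches of Ifit3 transcripts in GENCODE M21, 51.2% also occur in its near copy Ifit3b, which has no row under that symbol among the genes analysed here, so the Ifit3 value may hold reads of both. The share was 57.6% for Oas1a and its copy Oas1g, and at most 11.8% for the other members.

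The oligoadenylate synthetases of the genes Oas1a, Oas2 and Oas3 activate RNase L when they bind double-stranded RNA. This role is not stated here for Oasl1 and Oasl2, which are grouped with them by name. None of Oas1a, Oas2, Oas3, Oasl1 and Oasl2 had a log2 fold change beyond 0.21 in either direction, and all 5 intervals lay within 2-fold. Oas2 had 13.3 ± 1.69 CPM in IL-33 KO and 11.5 ± 3.12 CPM in WT and Oasl2 had 36.5 ± 5.02 CPM in IL-33 KO and 35 ± 9.51 CPM in WT (SD, n = 3). WT 2 was the lowest library for Oas1a, Oas2, Oas3 and Oasl2, whereas IL-33 KO 1 was lowest for Oasl1.

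The 3 most abundant type I members, Ifitm3, Ifi27l2a and Bst2, had lower fitted values in IL-33 KO, and 0 passed in edgeR. Ifitm3, which blocks fusion of viral envelopes in endosomes, had 266 ± 73.9 FPKM in IL-33 KO and 302 ± 53.4 FPKM in WT (SD, n = 3), the highest level of all members, with 297, 182 and 319.6 FPKM (IL-33 KO 1 to 3) against 343, 241 and 319.9 FPKM (WT 1 to 3). IL-33 KO 2 was the lowest of its 6 values and WT 1 the highest. Ifi27l2a had FPKM values of 85.2, 67.1 and 96.5 (IL-33 KO 1 to 3) and 45.2, 69.0 and 177 (WT 1 to 3). WT 3 was the highest of its 6 values and WT 1 the lowest, a ratio of 3.49 on the CPM scale. Bst2, tetherin, which holds budding virions at the cell surface, had 83.6 ± 7.38 FPKM in IL-33 KO and 82.5 ± 31.7 FPKM in WT (SD, n = 3), and 59, 58.4 and 69 CPM (IL-33 KO 1 to 3) against 49.2, 55.8 and 86.7 CPM (WT 1 to 3), also highest in WT 3. The means of Ifi27l2a and Bst2 differ by less than the spread between libraries. The log2 fold changes were -0.27 ± 0.23, -0.27 ± 0.41 and -0.04 ± 0.21 (SE) for Ifitm3, Ifi27l2a and Bst2, with adjusted p = 0.729, 0.850 and 0.959 in edgeR. Without WT 3, those of Ifi27l2a and Bst2 were 0.40 and 0.24. Ifi35, a leucine zipper protein, was the lower-valued type I member with the smallest p, at 14.7, 15.4 and 20.9 CPM (IL-33 KO 1 to 3) against 19.7, 20.2 and 19.2 CPM (WT 1 to 3) (log2 fold change -0.21 ± 0.16, SE, adjusted p = 0.702 in edgeR).

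Of the remaining type I members, Zbp1, a sensor of left-handed nucleic acids that can trigger cell death, had 25.2 ± 3.71 CPM in IL-33 KO and 21.7 ± 6.78 CPM in WT (SD, n = 3). Parp14, an ADP-ribosyltransferase, had 55.8 ± 8.9 CPM in IL-33 KO and 47.6 ± 13.5 CPM in WT, and Xaf1, which promotes apoptosis, had 12.8 ± 0.940 CPM in IL-33 KO and 11.3 ± 1.49 CPM in WT (SD, n = 3). Ifi44 and Rtp4 had log2 fold changes of 0.32 ± 0.27 and -0.04 ± 0.20 (SE). WT 2 was the lowest library for all 5 of these genes.

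**Figure D5:**
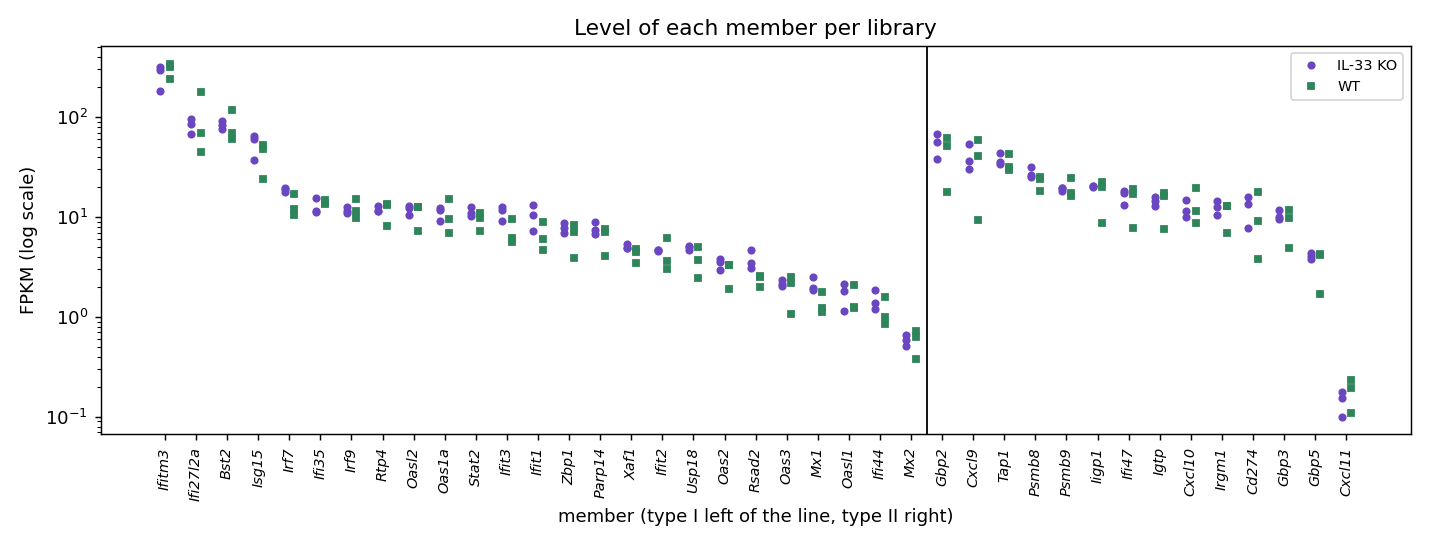
FPKM of each member in each library on a log axis, IL-33 KO as circles and WT as squares, ordered by mean level within the type I members (left) and the type II members (right). Levels run from Cxcl11 at 0.162 FPKM to Ifitm3 at 284 FPKM (means of 6 libraries), and in most type II members 1 WT square, WT 2, lies below the other 5 points.

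The type II members open with the chemokines Cxcl9, Cxcl10 and Cxcl11, which draw T cells and NK cells through the receptor CXCR3 and are neighbours on chromosome 5. Cxcl9, the most specific of them for interferon-gamma, had CPM values of 82.2, 157 and 106 (IL-33 KO 1 to 3) and 126, 28.6 and 165 (WT 1 to 3). WT 3 was highest and WT 2 lowest, 5.77 times apart, with all 3 IL-33 KO values between them. Its log2 fold change was 0.11 ± 0.54 (SE, adjusted p = 0.958 in edgeR), and -0.34 without WT 2. Cxcl10 had CPM values of 10.2, 12.7 and 16 (IL-33 KO 1 to 3) and 22.8, 10.3 and 12 (WT 1 to 3), where WT 1 stood above the other 5. Its log2 fold change was -0.21 ± 0.31 (SE, adjusted p = 0.848 in edgeR), and 0.22 without WT 1. Cxcl11 was near the lower end of measurement, at 0.632, 0.380 and 0.580 CPM (IL-33 KO 1 to 3) against 0.957, 0.437 and 0.710 CPM (WT 1 to 3) (log2 fold change -0.39 ± 0.43, SE, adjusted p = 0.786 in edgeR).

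The guanylate-binding proteins and immunity-related GTPases take part in the defence against intracellular microbes that live in vacuoles. All 7 members of this group, Gbp2, Gbp3, Gbp5, Iigp1, Irgm1, Igtp and Ifi47, were higher in IL-33 KO by value, against 0 of 7 without WT 2 and 4 of 7 without IL-33 KO 2. None passed in edgeR in any of these fits. Gbp2, the most abundant type II member, had CPM values of 90.1, 170.2 and 142 (IL-33 KO 1 to 3) and 166, 47.4 and 123 (WT 1 to 3). Its log2 fold change was 0.26 ± 0.42 (SE, adjusted p = 0.862 in edgeR), and -0.11 without WT 2. Iigp1 had CPM values of 58.5, 64.3 and 63.7 (IL-33 KO 1 to 3) and 66.9, 29.2 and 66.3 (WT 1 to 3). The 3 IL-33 KO values of Iigp1 lay within 1.1 times of each other and below those of WT 1 and WT 3 (log2 fold change 0.20 ± 0.28, SE, adjusted p = 0.840 in edgeR). Gbp3 and Gbp5 lie on chromosome 3. Gbp3 had 25.1, 31.7 and 25.4 CPM (IL-33 KO 1 to 3) against 28.4, 13.8 and 30.4 CPM (WT 1 to 3), and Gbp5 had 10.8, 12.2 and 13.2 CPM (IL-33 KO 1 to 3) against 14, 5.5 and 12.1 CPM (WT 1 to 3). In both genes the WT 2 value stood apart below the other 5. Their log2 fold changes were 0.18 ± 0.28 and 0.20 ± 0.31 (SE, adjusted p = 0.854 and 0.857 in edgeR). Igtp, Ifi47 and Irgm1, on chromosome 11, had log2 fold changes of 0.0027, 0.08 and 0.14. WT 2 was the lowest library for each of the 7.

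The antigen-processing members had 3 of the 4 narrowest intervals among the 39. Psmb8 and Psmb9 are catalytic subunits of the immunoproteasome, and Tap1 carries the peptides it makes into the endoplasmic reticulum. Psmb8 had CPM values of 46.8, 48.4 and 59.2 (IL-33 KO 1 to 3) and 51, 36.9 and 43.8 (WT 1 to 3). IL-33 KO 3 was highest and WT 2 lowest, and WT 1 lay above IL-33 KO 1 and 2 (log2 fold change 0.23 ± 0.16, SE, adjusted p = 0.674 in edgeR). Tap1, the most abundant of the 3 per length, had 131, 169 and 131 CPM (IL-33 KO 1 to 3) against 132, 124 and 159 CPM (WT 1 to 3), with a log2 fold change of 0.05 ± 0.16 (SE, adjusted p = 0.925 in edgeR). Psmb9 had 53.9 ± 2.51 CPM in IL-33 KO and 57.3 ± 9.71 CPM in WT (SD, n = 3), and its log2 fold change was -0.09 ± 0.14 (SE). The interval of Psmb9, -0.41 to 0.24, is the narrowest among the 39 members.

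Cd274 encodes PD-L1, the ligand that restrains T cells through PD-1. It lies 537019 bases from Il33 on chromosome 19, and the Ifit genes lie 4589976 to 4680153 bases away. Cd274 had CPM values of 26.4, 56.9 and 48.6 (IL-33 KO 1 to 3) and 69.1, 14.8 and 31.8 (WT 1 to 3). Both the highest and the lowest value belonged to WT, 4.68 times apart, and the IL-33 KO values lay inside that range. Its log2 fold change was 0.19 ± 0.51 (SE, 95% interval -0.98 to 1.36), -0.19 without WT 2 and 0.92 without WT 1.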

How the data were processed

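Genotype and replicate number came from the sample titles. The authors deposited a table of whole-number read counts and one of FPKM values, both over 35275 genes. STAR, RSEM and mm10 are named, without versions, in the submitters' processing notes; strand handling and the treatment of multiply mapped reads are not given in the sources used here. Recomputing the deposited FPKM from count, gene length and column total left a largest relative difference of 2.782e-07.

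The members and lists were chosen with earlier results of these data known. All genes' counts went into edgeR 4.0.16 (R 4.3.3): filterByExpr by genotype left 15720 genes, then TMM scaling, glmQLFit and glmQLFTest, two-sided, with Benjamini-Hochberg adjustment over all tested genes and a threshold of 0.05. Log2 fold changes are IL-33 KO minus WT, and their SE was derived from the F statistic. CPM is the count relative to the TMM-scaled library size. Mean levels of lists use log2 CPM with a prior count of 2. The alternatives used DESeq2 1.42.0 and limma 3.58.1. Members given with full statistics were, by rule, the 8 type I and 6 type II members with the smallest p and the 3 of each class with the highest mean FPKM. In each pathway list the 2 genes with the smallest p were named, and other names were chosen after their values were seen. One gene of the signalling list is not reported here. The fitting code was tested on simulated data. No 2 libraries agreed within sampling noise (chi-square per degree of freedom at least 31.7). Promoters are RefSeq sequences of GRCm38.p6, and transcripts are from GENCODE M21. Figures were drawn with matplotlib 3.10.9.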

Additional observations from a re-analysis of the deposited data

How the results depend on the processing

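Members called stayed at 0 in all 16 alternative settings, with adjusted p of at least 0.105 for any of them. The count of all genes called, 3 in edgeR with TMM, was 5 with upper quartile scaling, 5 with total counts, 33 without a filter, 234 in DESeq2, 11 in limma-voom, 15 with log2(FPKM + 1), 11 with log2(FPKM + 0.1), 6 with log2(FPKM + 1) unfiltered, and 2 to 24 when a library was left out (24 without WT 3, and 10 and 5 on leaving out knockout library 2 or 3). The type I median stayed between 0.0061 and 0.30 and the type II median between -0.14 and 0.31. With total counts 21 of 25 type I members were higher, but so were 60.7% of all genes. Of the 20 members with full statistics, 11 kept their direction in every setting that could test them. Bst2 turned to 0.0192 with total counts, to 0.0797 with log2(FPKM + 1), filtered or not, and to 0.0812 with log2(FPKM + 0.1). When a library was left out, log2 fold changes ran from -0.20 to 0.24 for Bst2, -0.59 to 0.40 for Ifi27l2a, -0.42 to 0.22 for Cxcl10, -0.34 to 0.57 for Cxcl9, -0.11 to 0.66 for Gbp2, -0.10 to 0.38 for Gbp3, -0.11 to 0.45 for Gbp5, -0.10 to 0.38 for Iigp1 and -0.0794 to 0.16 for Tap1. With the longer response element core that ends in a further C, 7 of 17 type I and 5 of 12 type II members matched, against 0.944% of all genes. With the replicate number as a block, 2 genes and 0 members were called and the medians were 0.18 and 0.20. Same-numbered libraries had correlations of -0.26, -0.12 and -0.38. Such correlations cannot settle whether the numbers pair the libraries, and the sample titles do not state it. Cxcl11 fell under the FPKM filter, and so did Mx2. The cause of these movements was not tested.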

Other observations

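Psmb9 and Tap1 are read in opposite directions from 1 shared stretch of chromosome 17, their RefSeq promoters lying at 34187281 to 34187580 and 34187306 to 34187605 (GRCm38.p6). Neither core was found in either window. Both genes were highest or next to highest in WT 3, and both differed little between genotypes, with log2 fold changes of -0.09 and 0.05. The deposited annotation also lets Irf7 overlap Phrf1, and Cxcl10 and Cxcl11 overlap Art3, on the opposite strand, and strand handling is not given. On the same strand it overlaps Gbp3 with Gbp5, Gbp5 with Gbp7, Igtp with Irgm2, Ifi47 with Olfr56 and Irf9 with Rnf31, pairs that strand cannot separate, so these values are uncertain where reads were shared. Oas1g, the near copy of Oas1a, had 7.28 ± 1.34 CPM in IL-33 KO and 7.17 ± 2.5 CPM in WT (SD, n = 3) and a log2 fold change of 0.02, against 0.02 for Oas1a.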
